A study of Arabidopsis thaliana with 24 samples.

Results

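The comparison of DPI with water in the systemic leaf of plants under high light rests on 6 of the 24 RNA sequencing libraries of the study, 3 with DPI and 3 with water. They were picked by their labels, as the systemic leaf libraries collected after 8 min of high light on the local leaf. All genes in the table entered the comparison, which was itself chosen with earlier results of these data known. The plants were Arabidopsis thaliana of the wild-type accession Col-0, 4 to 5 weeks old, grown at 23°C in short days (8 h light, 16 h dark) under 50 µmol m−2 s−1. A drop of 0.3% agarose with water or with 50 mM DPI (diphenyleneiodonium) sat for 15 min halfway along the path from the local to the systemic leaf, and the local leaf was then lit at 2000 µmol m−2 s−1. The systemic leaf received neither the strong light nor the drop itself. Both groups therefore carried a drop, had the same genotype and age and received the same light, and differed by the labels only in what the drop held. Each replicate was a pool of leaves from many plants, so that p-values measure spread between pools, 3 per group, and not between plants. That spread was estimated over all 8 groups in 1 model and moderated across transcripts. The remaining 18 libraries hold the same drops without high light and the local leaf, and they enter below where the effect of DPI is set beside its effect in the unstressed systemic leaf and in the lit local leaf.

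DPI inhibits enzymes that carry a flavin, among them the NADPH oxidases of the plasma membrane, called respiratory burst oxidase homologues (RBOH) in plants. A stressed leaf triggers a wave of reactive oxygen species that passes from cell to cell, is maintained by RBOHD, and travels with calcium and electric signals to leaves that were not stressed, where transcripts of acclimation and defence change within minutes. A drop of inhibitor on the path between leaves is used to interrupt this wave, and since flavin enzymes also serve mitochondria, nitrogen assimilation and light perception, DPI can reach other processes as well.

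The 6 libraries held 16216551 to 22547855 reads, and the floor of 3 reads, the level below which a value cannot be told from counting noise, stood at 2.40 to 3.30 normalized counts. Replicates of a group correlated with r = 0.991 to 0.993 across the tested transcripts, and no pair was as close as sampling noise alone would allow. The first principal component of these 6 libraries held 59.9% of the variance and separated the drops, and the second, with 12.01%, set water replicate 1 apart from the other two water libraries. The labelled tissue was checked by markers. The mesophyll transcripts RBCS1A, LHCB1.1, LHCB1.3, RCA and CAB4 had a summed level of 1231500.0 to 1294880.0 normalized counts in the water libraries and 1074700.0 to 1157880.0 in the DPI libraries. LHCB1.3 and RCA fell, and the other 3 did not pass the test. After quantile normalization LHCB1.3 and RCA differed by exactly 0. That scaling gives the same value to transcripts of the same rank in every library, so it cannot test these 2 falls. Summed levels of 5 epidermis markers were 28170.2 to 28950.2 with water and 25954 to 27466 with DPI, those of 6 guard cell markers 1126 to 1145 and 1049.7 to 1089, those of 3 phloem markers 8011 to 8588 and 9334 to 9428, and those of 5 xylem markers 777 to 953 and 849 to 932. Of the root markers IRT1 and PLT1 were at 0 in all 6 libraries, while PYK10, a beta-glucosidase of root endoplasmic reticulum bodies, fell from 91.9 ± 16.9 to 37.1 ± 5.78 normalized counts (SD, n = 3). Of the flower and meristem markers WUS and STM were at 0 in all 6 libraries and the summed level of the 5 was at most 16.5. In bulk leaf samples fewer cells of a type and less RNA per cell cannot be told apart, and the part of these marker differences in the results below was not tested.

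DPI changed a large part of the transcriptome of the systemic leaf, mostly by small amounts. Of 18314 tested transcripts 7154 differed between the drops at a limma adjusted p-value under 0.05 (39.1% of those tested), 3571 being higher under DPI (19.5%) and 3583 lower (19.6%). The median size of these changes was 0.37 on the log2 scale, and 4645 of them were smaller than 0.5. At least 2-fold rises numbered 352 (1.92%) and at least 2-fold falls 306 (1.67%). In 8737 transcripts (47.7%) the 3 DPI libraries did not overlap with the 3 water libraries, 4422 with all DPI values above (24.1%) and 4315 with all below (23.6%). Over all tested transcripts the median difference was 0.0013 on the log2 scale, a value that the scaling of the libraries holds near 0. The shares of 19.5% higher and 19.6% lower are the background for each count of list members below. A count near them is no result about its list. The lists were chosen with earlier results of these data known, so a count away from the shares is a description and not a test. Here and below, levels are normalized counts, differences are DPI minus water on the scale of log2(normalized count + 1), on which the change of low transcripts is understated, and "rose" or "fell" is used of transcripts past this threshold.

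The 12 largest rises included those of DREB-type factors and of enzymes that inactivate gibberellins and jasmonate. SRO5, a member of the RCD1-like family with a role in salt and oxidative stress, stood at 31.9, 21.5 and 21.3 normalized counts in the 3 water libraries and at 334, 379 and 357 in the 3 DPI libraries. Its DPI libraries all lay above the water libraries, with a log2 difference of 3.81 (SE 0.246, limma adjusted p 3.02e-16). DDF1, a DREB-type factor that lowers gibberellin levels when overexpressed, went from 26.4, 34.5 and 32.4 to 471, 392 and 399, a difference of 3.72 (SE 0.264, limma adjusted p 4.8e-15). Its relative DDF2 (AT1G63030), at 9.90, 8.62 and 8.10 with water and 99.5, 134 and 105 with DPI, rose by 3.52 (SE 0.426). AT5G52020, annotated as an integrase-type DNA-binding protein as DDF1 and DDF2 are, was at 8.02 ± 4.46 with water and at 94.5 ± 8.70 with DPI (SD, n = 3), a rise of 3.51. These 3 factors are similar in sequence, and how reads with several locations were counted is not given in the sources used here, so that their single levels are uncertain. GA2OX6, an enzyme that inactivates gibberellins, was at 72.6, 57.1 and 51.7 with water and at 387, 351 and 369.7 with DPI, a rise of 2.60 (SE 0.172, limma adjusted p 5.67e-16).

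CYP94B3, the cytochrome P450 that inactivates the active jasmonate by oxidation, stood at 79.2, 86.2 and 78.0 normalized counts under water and at 977, 963 and 948 under DPI, a difference of 3.55 (SE 0.294, limma adjusted p 3.8e-13). PHI-1, a protein of the exordium type linked to growth of the cell wall, stood at 304, 338 and 361 under water and at 2364, 2389.8 and 2553 under DPI, a difference of 2.86 (SE 0.0744, limma adjusted p 8.16e-29). RAS1, a regulator of responses to abscisic acid and salt, rose by 2.82, BPS3, annotated as a BPS1-like protein, by 3.16, the aspartyl protease AT4G16563 by 3.05 and AT1G50040, a protein of unknown function, by 2.65. FSD1, the iron superoxide dismutase that replaces the copper enzymes when copper is scarce, was at 49.5, 34.5 and 68.9 under water and at 305, 303 and 335 under DPI, a difference of 2.65 (SE 0.134, limma adjusted p 1.66e-19). These 12 were taken from transcripts whose groups did not overlap.

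The largest falls held clock components, B-box factors and transcripts of phosphate metabolism. ORE1, a NAC factor that promotes leaf senescence, stood at 89.1, 107 and 91.2 normalized counts with water and at 9.95, 6.56 and 5.60 with DPI, a difference of −3.56 (SE 0.370, limma adjusted p 1.8e-10). RVE1, a MYB-like factor on the output side of the clock, went from 1007, 1012 and 893 to 118, 125 and 114, a difference of −3.02 (SE 0.0748, limma adjusted p 1.85e-29). LHY, a core component of the morning loop of the clock, was at 5670.3, 6009 and 5691 with water and at 938, 936 and 942 with DPI, a difference of −2.62 with an SE of 0.0384 and a limma adjusted p of 6.73e-37. For LHY the DPI libraries were nearly equal, and the groups were far apart. ASG4, a homeodomain-like protein, fell from 367 ± 30.6 to 70.9 ± 13.9 normalized counts (SD, n = 3).

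The B-box transcripts BBX31 and BBX32, zinc finger proteins of light signalling, fell by 2.51 and 2.26 on the log2 scale. BBX32 was at 208, 256 and 219.8 with water and at 40.8, 53.6 and 46.4 with DPI. PAP17, an acid phosphatase, stood at 539, 611 and 614 with water and at 99.5, 95.1 and 90.4 with DPI, a difference of −2.62 (SE 0.0912, limma adjusted p 1.44e-24). SRG3, annotated as senescence-related gene 3, fell from 222 ± 14.8 to 22.5 ± 4.65 and G3Pp1, a putative glycerol-3-phosphate transporter, from 2155 ± 69.9 to 424 ± 14.8 normalized counts (SD, n = 3). AO, the L-aspartate oxidase at the start of NAD synthesis, fell from 587 ± 15.0 to 122 ± 7.07. BMY3, of the beta-amylase family of starch breakdown, fell from 1659 ± 41.9 to 362 ± 9.95, and AT5G54130, annotated as a calcium-binding endonuclease and phosphatase family protein, from 758 ± 25.7 to 119 ± 2.39 (SD, n = 3). These 12 were likewise taken from transcripts without overlap between the groups, and the plot of the largest changes gives their values by library.

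**Figure D1:**
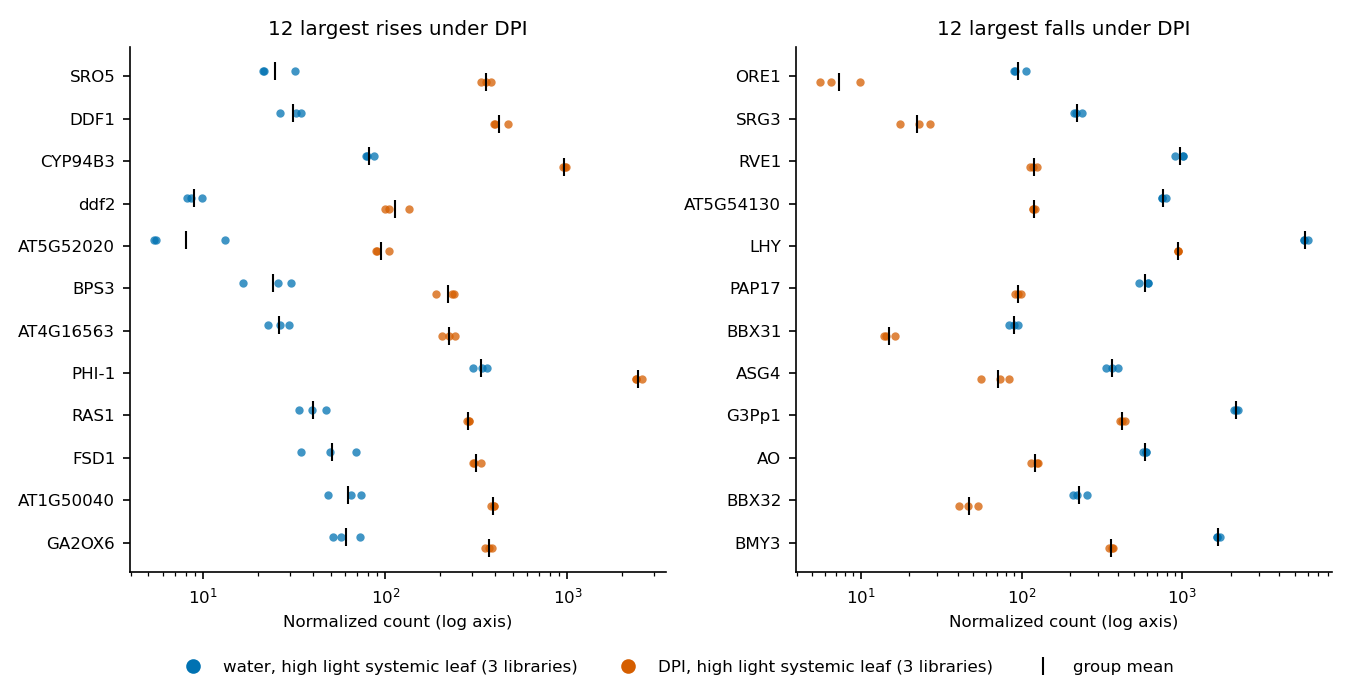
Normalized counts (log axis) of the 12 transcripts with the largest rises (left) and the 12 with the largest falls (right) under DPI in the high light systemic leaf, 1 point per library, with a bar at each group mean. SRO5 lies at 24.9 with water and 357 with DPI on average, and LHY at 5790.0 and 939. Transcripts whose groups overlap were not eligible for the plot.

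The 10 transcripts that the study follows across its experiments all differed between the drops, 9 being higher and 1 lower under DPI, with a median of 0.82. In the unstressed systemic leaf likewise 9 were higher and 1 lower under DPI, with a median of 0.92. The study's short list holds transcripts required for acclimation in mutants or suppressed by DPI. MYB30 and WRKY53, which it did not test as mutants, belong there by the second route. The study compared light responses under each drop, whereas levels between the drops are compared here, and both transcripts were higher under DPI. Since the DPI samples helped to choose MYB30 and WRKY53, their direction here is not independent evidence. RBOHD, the NADPH oxidase that maintains the wave, stood at 1648, 1773 and 1642 normalized counts with water and at 1839, 1826 and 1801 with DPI. Its groups did not overlap, and the difference was small at 0.11 (SE 0.0422, limma adjusted p 0.0339). MYB30, a MYB factor of the hypersensitive cell death response, was at 403, 386 and 425 with water and at 623, 629 and 611 with DPI, a difference of 0.62 (SE 0.0765, limma adjusted p 1.18e-08). The GATA factor GATA8 (AT3G54810) went from 785, 816 and 839.8 to 2308, 2423 and 2440.1, a difference of 1.55 (SE 0.0468, limma adjusted p 1.04e-26). The 2 WRKY factors of the list, WRKY48 and WRKY53, rose by 1.60 and 0.26. AT3G13600, a calmodulin-binding protein, rose by 1.62, AT1G69890, annotated as an actin cross-linking protein, by 1.13 and AT1G29670, a GDSL-type lipase, by 1.03. Of the listed disease resistance proteins of the TIR-NBS-LRR class, AT1G56520 changed by 0.19 and AT5G46270 by −0.24. The call of WRKY53 was lost without DPI replicate 2, DPI replicate 3 or water replicate 2 (limma adjusted p 0.0654, 0.0760 and 0.0928), and that of AT1G56520 without DPI replicate 2 or water replicate 3 (0.0543 and 0.0979).

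The targets of DPI in the wave, the RBOH enzymes, were represented in this leaf by RBOHD and RBOHF. RBOHF was at 257, 267 and 254 with water and at 303, 263 and 297 with DPI, and its difference of 0.15 did not pass the threshold (limma adjusted p 0.139). The other 8 genes of the family were too low to be tested, with at most 10.1 normalized counts in any of the 24 libraries. The rise of RBOHD rests on single libraries, since it was lost without DPI replicate 1 (limma adjusted p 0.0904), DPI replicate 2 (0.0754), water replicate 1 (0.124) or water replicate 3 (0.134).

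**Figure D2:**
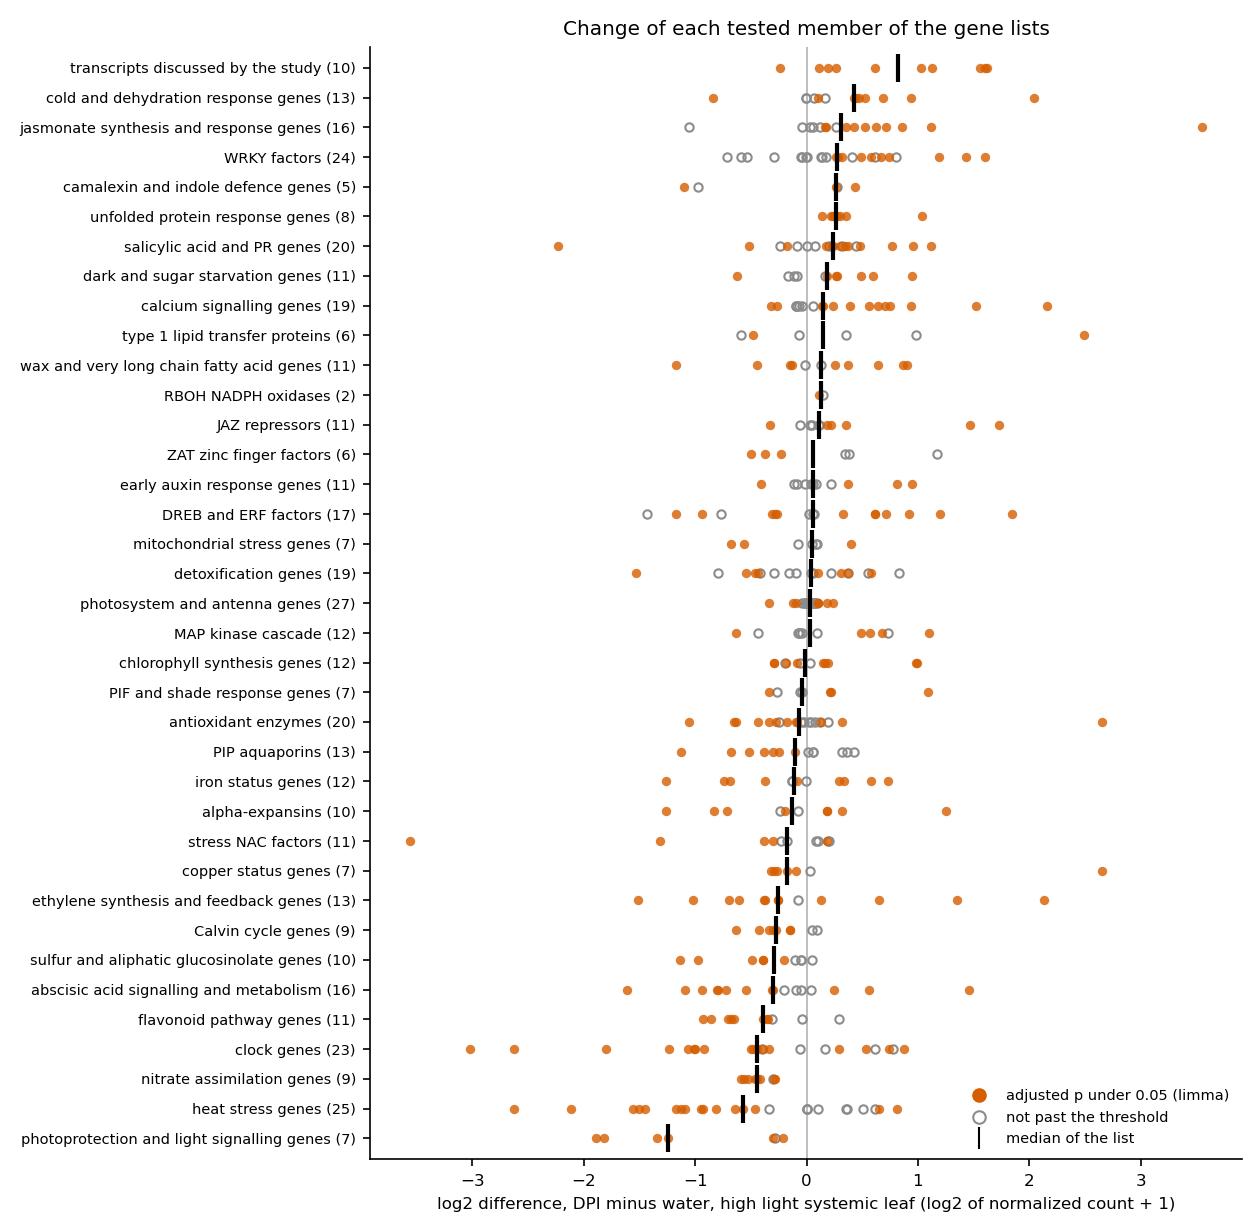
Log2 difference, DPI minus water, in the high light systemic leaf for each tested member of the gene lists (number tested in brackets), ordered by the list's median. Filled points passed the threshold, open points did not, and the bar is the median. Medians run from −1.24 for photoprotection and light signalling genes to 0.82 for the transcripts that the study follows, with the photosystem and antenna genes close to 0 at 0.03.

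Transcripts of enzymes that remove reactive oxygen species were more often lower than higher. Of 20 antioxidant enzymes 9 fell, 3 rose and 8 did not pass the test, with a median of −0.07 beside 0.0013 over all tested transcripts. CAT2, the main catalase of leaf peroxisomes, stood at 51695, 47933 and 48444 with water and at 23287, 23389 and 24417 with DPI, a difference of −1.06 (SE 0.0426, limma adjusted p 1.21e-22). This is the only one of the 3 catalases that fell, since CAT1 rose by 0.31 and CAT3 differed by 0.03 (limma adjusted p 0.647). APX1, the cytosolic ascorbate peroxidase, went from 5588, 4919 and 5221 to 3245, 3305 and 3613, a difference of −0.63 (SE 0.0522, limma adjusted p 4.26e-13). The glutathione reductase GR1 changed by −0.65 and the chloroplast peroxidase SAPX by −0.43. Among the superoxide dismutases FSD1 rose as given above, the mitochondrial MSD1 rose by 0.13, and the copper-zinc enzymes CSD1, CSD2 and CSD3 fell by 0.18, 0.09 and 0.28 on the log2 scale.

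Of 7 tested copper status genes 5 fell, 1 rose and 1 did not pass the test. FSD1 is the 1 that rose, and the falls were small, such as −0.29 for CCS, the copper chaperone of superoxide dismutase, and −0.27 for SPL7, the regulator of the copper deficiency response. The other copper deficiency transcripts COPT2, ZIP2 and AT1G71200 were not tested, with at most 9.93 normalized counts in any library. Of 12 iron status genes 4 rose, 5 fell and 3 did not pass the test. The 4 bHLH factors that are induced by iron deficiency rose together, by 0.73 for BHLH100, 0.58 for BHLH38, 0.33 for BHLH39 and 0.29 for BHLH101. BHLH100 stood at 172, 164 and 171 with water and at 281, 284 and 276 with DPI. The ferritins FER1 and FER4, which store iron, fell by 0.74 and 0.69 on the log2 scale. PYE, a bHLH repressor in the same response, fell from 595 ± 19.4 to 248 ± 8.18 normalized counts (SD, n = 3).

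The list with the lowest median was that of photoprotection and light signalling, in which 6 of 7 tested members fell and none rose (median −1.24). HY5, the bZIP factor that promotes responses to light, stood at 200.3, 209 and 205 with water and at 53.7, 62.3 and 56.0 with DPI, a difference of −1.82 (SE 0.113, limma adjusted p 8.16e-17). Its homologue HYH was at 439, 484 and 486 with water and 126, 130.1 and 121 with DPI, a difference of −1.89 (SE 0.0743, limma adjusted p 5.74e-23). For both factors the highest DPI library lay far below the lowest water library. RUP2, a repressor of the ultraviolet-B receptor, fell by 1.35 on the log2 scale, and its relative RUP1 differed by −0.29 without passing the test (limma adjusted p 0.293). ELIP1, an early light-induced protein of the thylakoid, was low in both groups at 30.8, 44.2 and 38.5 with water and 11.9, 23.0 and 12.8 with DPI, a difference of −1.24 (SE 0.240, limma adjusted p 4.85e-05).

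Transcripts of flavonoid synthesis, a target of HY5 in seedlings, were lower as well. Of 11 tested members 8 fell, none rose and 3 did not pass the test (median −0.39). CHS, chalcone synthase, stood at 391, 328 and 344 with water and at 180.1, 201 and 204 with DPI, a difference of −0.86 (SE 0.113, limma adjusted p 4.8e-08). Chalcone isomerase (CHI, AT3G55120) changed by −0.93, and C4H, an early enzyme of the phenylpropanoid pathway, by −0.67. The entry enzymes PAL1, PAL2 and PAL4 fell by 0.39, 0.35 and 0.35 on the log2 scale. The late enzymes F3H, DFR and LDOX and 4 regulators were not tested, with at most 13.9 normalized counts in any library.

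Most clock transcripts were lower under DPI, and a few were higher. Of 23 tested members 14 fell, 4 rose and 5 did not pass the test (median −0.44). Beside LHY and RVE1, the morning members CCA1 and RVE8 were among those with the deeper falls. CCA1, the partner of LHY, stood at 6349, 6445 and 6388 with water and at 2784, 2757 and 2635 with DPI, a difference of −1.23 (SE 0.0317, limma adjusted p 6.61e-29). RVE8, an activator of evening genes, went from 1731, 1736 and 1735 to 498, 516 and 478, a difference of −1.80. LNK2, a co-activator that works with RVE8, fell by 1.06, LNK3 by 1.00 and the pseudo-response regulator PRR9 by 1.01 on the log2 scale. The rises included TOC1, ELF3 and CHE. TOC1, the pseudo-response regulator of the evening, was at 147, 143 and 135 with water and at 268, 250.3 and 266 with DPI, a difference of 0.88 (SE 0.0986, limma adjusted p 1.18e-09). ELF3, of the evening complex, rose by 0.53 and CHE, which represses CCA1, by 0.74. GI, which also peaks late in the day, differed by only −0.06 and did not pass the test (limma adjusted p 0.408). The study's methods place all experiments in the same morning window, and no label gives the harvest time of a library. Any difference in harvest time between the drops was not tested. In the unstressed leaf likewise 14 of the 23 fell and 4 rose (median −0.45). The drop by light interaction passed the threshold for 4 of the 23, beside 6.40% of all tested transcripts. These were RVE1 at −1.55, PRR9 at −0.52, LHY at −0.29 and GI at 0.50.

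**Figure D3:**
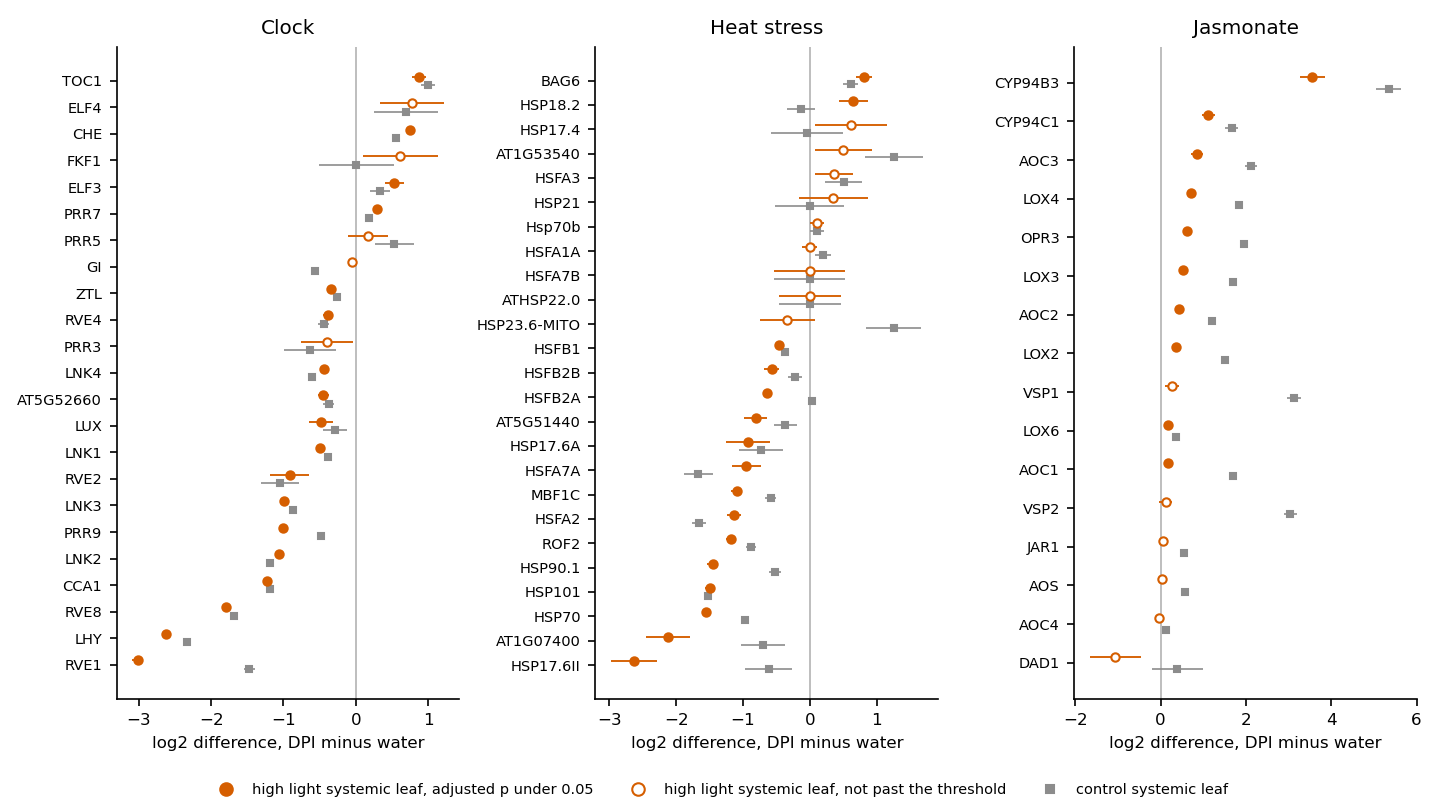
Log2 difference, DPI minus water, with its standard error for the tested members of the clock, heat stress and jasmonate lists, in the high light systemic leaf (circles, filled where past the threshold) and in the unstressed control systemic leaf (grey squares). Jasmonate members lie further right in the control leaf, such as VSP2 at 3.04 there and 0.12 here, while LHY lies at −2.33 and −2.62.

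Nuclear photosynthesis genes changed little. Of 27 tested photosystem and antenna genes 20 did not pass the test, 4 rose and 3 fell, with log2 differences from −0.34 for LHCB1.3 to 0.23 for PETE1. LHCB1.1, an antenna protein of photosystem II, was at 137747, 130728 and 126901 with water and at 136439, 136069 and 141132 with DPI, and its groups overlapped. Of 9 Calvin cycle genes 7 fell and 2 did not pass, among them RBCS1B, a small subunit of Rubisco, by 0.63 and RCA, Rubisco activase, by 0.34 on the log2 scale, while its relative RBCS1A differed by 0.05 (limma adjusted p 0.414). Reads shared between the RBCS and LHCB copies make their single levels uncertain. Of 12 chlorophyll synthesis genes 5 rose and 4 fell. PORB, a light-dependent protochlorophyllide reductase, stood at 6712, 6655 and 6419 with water and at 12854, 13004 and 13201 with DPI, a difference of 0.98 (SE 0.0356, limma adjusted p 4.84e-24). PORA rose by 0.99, from 249.5 ± 16.4 to 498 ± 28.0 normalized counts (SD, n = 3). HEMA1, at the entry of the pathway, and CHLH, a subunit of magnesium chelatase, both changed by −0.29 on the log2 scale.

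Heat stress transcripts were more often lower than higher. Of 25 members 14 fell, 2 rose and 9 did not pass the test (median −0.57), and of the 16 members above the floor in both groups 11 fell and 2 rose (median −0.72). HSP70 (AT3G12580), a cytosolic chaperone, stood at 2179.9, 2232 and 2085 with water and at 755, 692 and 765 with DPI, a difference of −1.55 (SE 0.0436, limma adjusted p 1.07e-27). HSP101, which recovers aggregated proteins, went from 372, 362 and 397 to 115, 141 and 143, a difference of −1.50, and HSP90.1 from 451, 509.6 and 424 to 143, 201 and 163, a difference of −1.45. In each of the 3 chaperones every DPI library lay below every water library. The heat stress factor HSFA2 fell from 129 ± 18.6 to 59.0 ± 11.7 and the co-activator MBF1C from 229 ± 22.0 to 107 ± 10.6 normalized counts (SD, n = 3). HSFA1A, a master regulator of the response, was at 99.0, 101 and 92.2 with water and 98.5, 96.2 and 97.6 with DPI and did not pass the test (limma adjusted p 0.999). Several small heat shock proteins were near or under the floor in this leaf. HSP17.6II was at 7.70, 9.70 and 4.05 with water and at 0.995, 0 and 0 with DPI, and AT1G07400 at 6.60, 3.23 and 17.2 with water and 2.98, 0 and 0.800 with DPI. Both were called lower, as was HSP17.6A at 2.08 ± 1.71 with water and 0.729 ± 1.26 with DPI (SD, n = 3), whose groups overlapped. No fold is given for these 3 because their DPI libraries lay at or under the floor, and the spread in their test is shared with the lit local leaf, where HSP17.6II was at 3569 ± 232 with water (SD, n = 3). HSP18.2, a small heat shock protein, and BAG6, a chaperone regulator, rose by 0.65 and 0.81.

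Chaperones of the endoplasmic reticulum went the other way. All 8 unfolded protein response genes on the list rose, with a median of 0.26. BIP3, the inducible form of the luminal chaperone BiP, was at 34.1, 30.2 and 29.4 with water and at 59.7, 71.1 and 64.8 with DPI, a difference of 1.04 (SE 0.230, limma adjusted p 0.0003). BIP1 and BIP2, near-identical genes whose reads may be shared, rose by 0.28 and 0.30, and BZIP60, the factor that induces these chaperones, by 0.22.

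Jasmonate transcripts were higher under DPI, by much less than in the unstressed leaf. Of 16 tested synthesis and response genes 10 rose, none fell and 6 did not pass the test, with a median of 0.31, beside 1.68 for the same members in the control systemic leaf, where 14 rose. For 12 of the 16 the drop by light interaction, the direct test of this difference, was negative and past the threshold (4.08% of all tested transcripts). LOX2, a lipoxygenase at the start of jasmonate synthesis, stood at 13683, 13843 and 13199 with water and at 17047, 17389.7 and 17761 with DPI, a difference of 0.36 (SE 0.0359, limma adjusted p 7.09e-11). In the control leaf it was at 7338 ± 371 with water and at 21042 ± 843 with DPI (SD, n = 3). OPR3, the reductase that follows in the pathway, rose by 0.62 here and 1.95 in the control leaf. AOC3, an allene oxide cyclase, rose by 0.86 and 2.13. VSP2, a vegetative storage protein used as a jasmonate reporter, was at 398, 420.2 and 399 with water and at 424, 460.2 and 439 with DPI and did not pass the test (limma adjusted p 0.585), whereas its control leaf levels were 85.8 ± 34.0 and 668 ± 15.9 normalized counts (SD, n = 3). MYC2 was listed at 0 in all 24 libraries, and no level is drawn from this.

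The JAZ proteins repress jasmonate responses and are themselves induced by the hormone. Of 11 tested JAZ genes 5 rose, 1 fell and 5 did not pass the test (median 0.12, beside 0.98 in the control leaf). Negative drop by light interactions passed the threshold for 9 of the 11, beside 4.08% of all tested transcripts. JAZ7 stood at 156, 161 and 164 with water and at 458, 469 and 409.7 with DPI, a difference of 1.47 (SE 0.148, limma adjusted p 8.07e-11), and JAZ8 rose by 1.73. JAZ1 was at 1059, 942 and 1037 with water and at 1046, 1037 and 1012 with DPI, so that the groups overlapped (limma adjusted p 0.849). The members JAZ2, JAZ5 and JAZ9 likewise did not pass the test, with differences of −0.05, 0.05 and 0.11. The calls of JAZ10, at a difference of 0.36, and of JAZ11, at −0.33, were lost without DPI replicate 1 (limma adjusted p 0.0638 and 0.154), without water replicate 2 (0.129 and 0.0807) and, for JAZ11, without water replicate 1 (0.115) or, for JAZ10, without DPI replicate 2 (0.108) or water replicate 3 (0.0825). That of JAZ11 was also lost by DESeq2 (adjusted p 0.0526).

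The stress factors ZAT12, ZAT10 and ZAT6 fell under DPI after high light and rose under DPI in the unstressed leaf. Of 6 tested ZAT zinc finger factors 3 fell and 3 did not pass the test, while in the control leaf 3 rose and none fell. ZAT12, an early marker of reactive oxygen and light stress, stood at 88.0, 103 and 110.4 with water and at 59.7, 73.2 and 80.8 with DPI, a difference of −0.50 (SE 0.153, limma adjusted p 0.00853), beside 1.18 in the control leaf. ZAT10 was at 1259, 1058 and 1151 with water and 913, 1023 and 1019.6 with DPI, a difference of −0.23 (SE 0.0721, limma adjusted p 0.0102), beside 1.63. ZAT6 changed by −0.37, or by −0.24 without water replicate 1, beside 0.99. In all 3 the DPI libraries lay below the water libraries after high light. The 3 falls were lost when single libraries were left out, without DPI replicate 1 in each case (limma adjusted p 0.0795 for ZAT12, 0.0870 for ZAT10 and 0.181 for ZAT6), without water replicate 3 for ZAT12 (0.0513) and ZAT6 (0.0535), without water replicate 1 for ZAT10 (0.104) and ZAT6 (0.273) and without DPI replicate 2 for ZAT6 (0.0888). The call of ZAT6 was also lost without the filter on low values (limma adjusted p 0.110) and after quantile normalization (0.0537). The drop by light interactions passed the threshold in every alternative, at −1.68, −1.86 and −1.36.

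Of 17 tested DREB and ERF factors, which bind the promoters of stress and ethylene-responsive genes, 7 rose, 5 fell and 5 did not pass the test (median 0.06, beside 0.96 in the control leaf). Negative drop by light interactions passed the threshold for 11 of the 17, beside 4.08% of all tested transcripts. ERF5 stood at 377, 331 and 342 with water and at 170.1, 151 and 144 with DPI, a difference of −1.17 (SE 0.120, limma adjusted p 1.15e-10), beside 0.60 in the control leaf. ERF13 fell by 0.94 on the log2 scale from 179 ± 16.6 to 92.8 ± 5.82 normalized counts (SD, n = 3). ORA47, an activator of jasmonate synthesis genes, went from 535, 491 and 567 to 433, 433 and 419, a difference of −0.31 (SE 0.112, limma adjusted p 0.0268). This call was lost without any 1 of the libraries except water replicate 2, with adjusted p of 0.0538 to 0.117. Other members rose, among them RRTF1, a factor of redox responses, by 1.20, DREB2A, a factor of drought and heat responses, by 0.92 and ABR1, a repressor of abscisic acid responses, by 1.85. The cold factors CBF2 and CBF3 rose by 0.61 and 0.62 while CBF1 differed by 0.02 (limma adjusted p 0.956), and since these lie next to each other as near copies their single levels are uncertain. ERF105 was listed at 0 in all libraries.

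**Figure D4:**
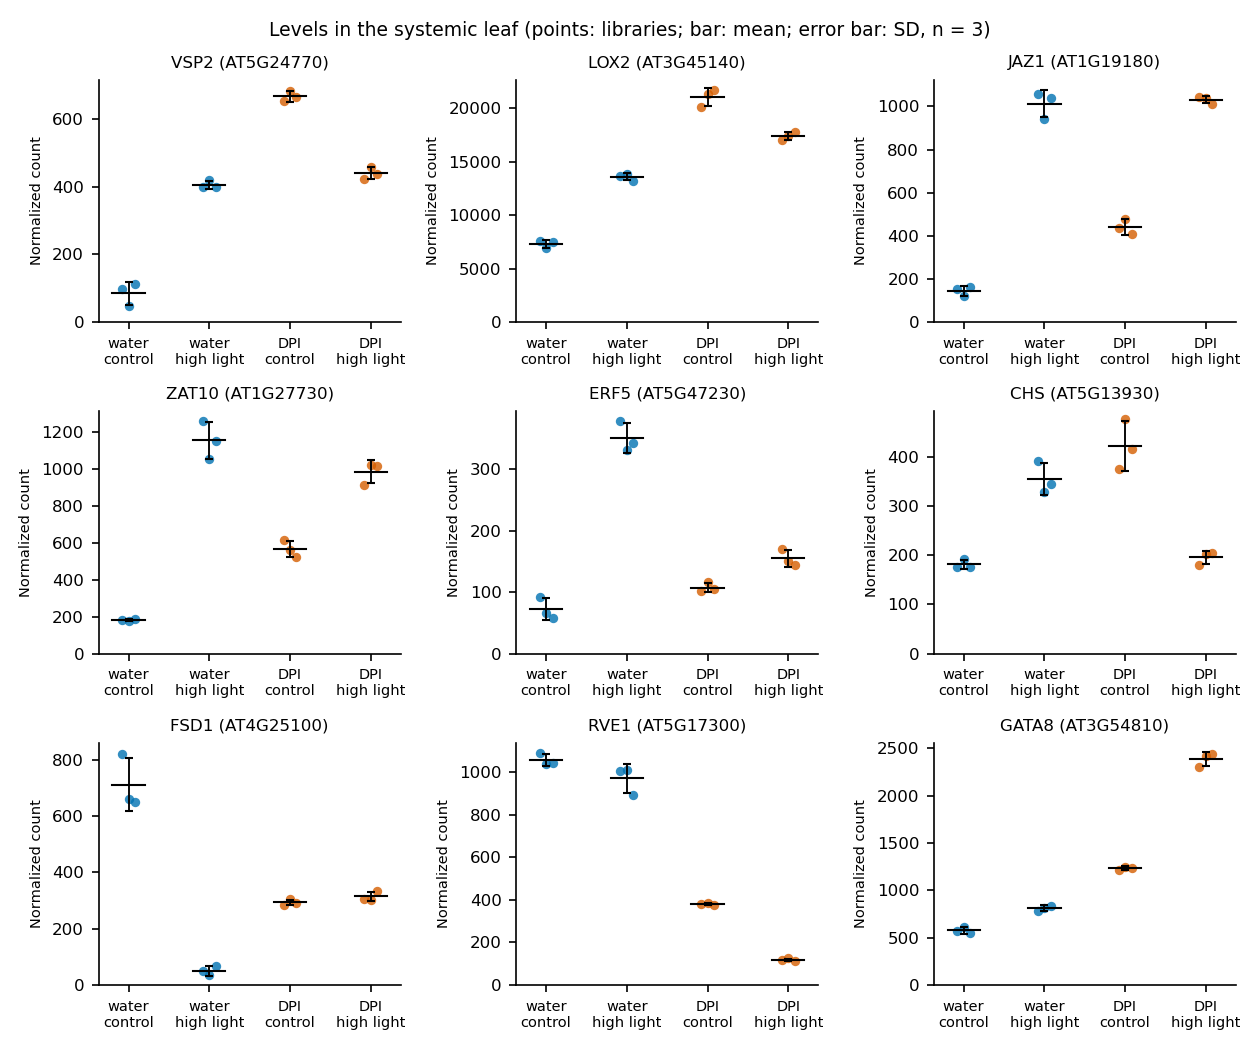
Normalized counts of 9 transcripts in the 4 systemic leaf groups, water or DPI and control or high light, 1 point per library with the mean and SD (n = 3), and each axis starts at 0. VSP2, LOX2, JAZ1, ZAT10 and ERF5 are higher with high light under water, and the distance between DPI and water after high light is smaller than without it or turns around, as for ERF5 with 350.2 and 155. For FSD1 the water level is 711 without and 51.0 with high light, and for GATA8 the DPI level is 1233 without and 2390.3 with high light.

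Among the WRKY factors, regulators of defence, 10 of 24 tested rose, none fell and 14 did not pass the test (median 0.27). WRKY18 stood at 387, 441 and 445 with water and at 1023, 923 and 952 with DPI, a difference of 1.19 (SE 0.0776, limma adjusted p 4.48e-16). WRKY22 rose by 1.43 and WRKY11 by 0.67. WRKY40, a partner of WRKY18, rose by 0.28 here and by 2.34 in the control leaf. WRKY33, a regulator of camalexin synthesis, was at 1537, 1556 and 1454 with water and 1478, 1416 and 1497 with DPI with overlapping groups (limma adjusted p 0.467).

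Transcripts of salicylic acid signalling were raised in part. Of 20 members 10 rose, 3 fell and 7 did not pass the test (median 0.23). NPR3, a salicylic acid receptor, stood at 933, 924 and 903 with water and at 1718, 1935 and 1728 with DPI, a difference of 0.96 (SE 0.0515, limma adjusted p 9.79e-19). The glutaredoxin GRX480 rose by 1.12, the synthesis regulator SARD1 by 0.77 and EDS1, a hub of immunity, by 0.48. ICS1, the main synthesis enzyme, was at 708, 719.7 and 591 with water and 700.5, 631 and 686 with DPI with overlapping groups (limma adjusted p 0.977). FMO1, needed for systemic acquired resistance to pathogens, was low at 7.70, 3.23 and 19.2 with water and at 2.98, 0 and 0.800 with DPI, where all libraries were at or under the floor. PBS3, which makes a conjugate in salicylic acid synthesis, fell from 172 ± 13.2 to 121 ± 24.6 normalized counts (SD, n = 3). PAD3, the last enzyme of camalexin synthesis, fell at a low level from 12.1 ± 3.39 to 5.61 ± 3.15 normalized counts (SD, n = 3), a difference of −1.1 that was lost without DPI replicate 1 (−0.60, limma adjusted p 0.325), water replicate 1 (0.144) or water replicate 3 (0.0846). The call of PAD3 was also lost by edgeR (adjusted p 0.06975), by DESeq2 (0.0581), in the fit of the compared groups only (0.0556) and without the filter on low values (0.0803). CYP79B2 and CYP79B3, which open the indole branch, rose by 0.43 and 0.26.

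Ethylene transcripts went in both directions. Of 13 tested members 8 fell and 4 rose. Among the synthases that make the ethylene precursor ACS11, ACS6 and ACS8 rose, ACS11 from 146, 186 and 239 to 526, 426 and 487, a difference of 1.35 (SE 0.129, limma adjusted p 1.84e-11), ACS6 by 0.65 and ACS8, at a low level, by 2.14. The falls held the receptors ERS2, ETR2 and ERS1 at −1.51, −1.02 and −0.26, the kinase CTR1 at −0.38 and the F-box proteins EBF1 and EBF2, which remove the factor EIN3, at −0.37 and −0.70. EBF2 stood at 826, 796 and 902 with water and at 478, 502 and 577 with DPI. ACO4, an oxidase of the last step, fell by 0.25 on the log2 scale.

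Abscisic acid signalling components were mostly lower, with 9 of 16 tested members falling and 3 rising (median −0.30). HAB1, a phosphatase that blocks the pathway, stood at 1690.2, 1589 and 1660.3 with water and at 768, 778 and 775 with DPI, a difference of −1.09 (SE 0.0437, limma adjusted p 1.21e-22). ABF3, a bZIP factor that activates target genes of the hormone, went from 1367, 1337 and 1429 to 725, 703 and 728, a difference of −0.94 (SE 0.0528, limma adjusted p 4.42e-18). CYP707A1, which breaks the hormone down, rose by 1.46, while its relative CYP707A2 fell to a level near the floor, from 12.7 ± 1.60 to 4.08 ± 3.17 normalized counts (SD, n = 3), a call lost without DPI replicate 1 or 3 or water replicate 2 or 3 (limma adjusted p 0.0522 to 0.128). NCED3, the synthesis enzyme induced by drought, differed by −0.20 and did not pass the test (limma adjusted p 0.0647). Cold and dehydration response genes were mostly higher, with 8 of 13 rising and 1 falling (median 0.43). The dehydrin COR47 stood at 5433, 5699 and 5754 with water and at 10835, 10998 and 10473 with DPI, a difference of 0.94 (SE 0.0392, limma adjusted p 4.38e-22). The dehydrins LTI30 and ERD10 rose by 2.05 and 0.68, RD29A by 0.53 and the chloroplast protectant COR15A by 0.43. RD20, a caleosin of lipid bodies, is the 1 that fell, from 768 ± 64.7 to 431 ± 47.8 (SD, n = 3).

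Calcium transcripts were higher in part. Of 19 tested members 11 rose, 2 fell and 6 did not pass the test (median 0.15). CML38, a calmodulin-like protein, stood at 125, 109 and 148 with water and at 588, 563 and 555 with DPI, a difference of 2.16 (SE 0.154, limma adjusted p 5.26e-15). The touch-induced CML12 went from 3934, 4019 and 3915 to 8032, 7361 and 7398, a difference of 0.94. CPK5, a calcium-dependent kinase that activates RBOHD, rose by 0.71 and the calcium pump ACA10 by 0.64. The glutamate receptor-like channels GLR3.3 and GLR3.6, which carry wound signals between leaves, differed by −0.09 and −0.10 and did not pass the test (limma adjusted p 0.177 and 0.574). Among 12 MAP kinase cascade members 4 rose, 1 fell and 7 did not pass the test, where 19.5% of all tested transcripts were higher and 19.6% lower. MPK3 was at 3167, 3092 and 3041 with water and at 5110.2, 4940.2 and 4863 with DPI, a difference of 0.68 (SE 0.0351, limma adjusted p 2.92e-19), and MPK6, which acts beside it, differed by −0.08 (limma adjusted p 0.246). MKK9 is the 1 that fell, by 0.64 on the log2 scale.

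Of 11 stress NAC factors 4 fell and 1 rose. Beside ORE1, the senescence factor NAP fell, from 814, 798 and 769.9 with water to 314, 319 and 321 with DPI, a difference of −1.32 (SE 0.0617, limma adjusted p 1.51e-20). Nitrate assimilation transcripts were lower, with 8 of 9 tested members falling and none rising (median −0.44). NIA2, the main nitrate reductase, a flavin enzyme itself, stood at 15656, 15395 and 14934 with water and at 10439, 10275 and 10441 with DPI, a difference of −0.56 (SE 0.0302, limma adjusted p 1e-18). NIA1 changed by −0.59, the nitrite reductase NIR1 by −0.44 and the nitrate transporter NRT1.1 by −0.52. Of 10 tested sulfur and aliphatic glucosinolate genes 6 fell and none rose. The fall of LSU2 was lost without water replicate 3 (limma adjusted p 0.0669). APR2, which reduces activated sulfate, went from 3545, 3154 and 3107 to 1544, 1454 and 1457, a difference of −1.14 (SE 0.0687, limma adjusted p 4.06e-17), and APR3 and APR1 changed by −0.97 and −0.49. Of 11 tested dark and sugar starvation genes 6 rose and 1 fell. DIN6, an asparagine synthetase induced in the dark, rose from 1539.7 ± 60.0 to 2968 ± 61.0, while DIN1 did not pass the test at 212 ± 21.0 and 189 ± 19.7 normalized counts (SD, n = 3).

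Water channel transcripts were lower, and lists of growth genes went in both directions. Of 13 PIP aquaporins 7 fell and none rose, with PIP1;2 at 30926, 29452 and 30113 with water and 22769, 23195 and 23468 with DPI, a difference of −0.38, and PIP2;3 at −1.13. Of 10 alpha-expansins, which loosen the cell wall, 4 rose and 4 fell, from −1.26 for EXPA1 to 1.25 for EXPA16. EXPA1 was at 6019, 6241 and 6299.8 under water and at 2502, 2602 and 2637 under DPI. Of 11 wax and very long chain fatty acid genes 5 rose and 4 fell. MYB96, an activator of wax synthesis, rose by 0.90 and its target CER1, an enzyme of alkane synthesis, by 0.87, whereas the elongase KCS6 fell from 10111 ± 146 to 7436 ± 283 (SD, n = 3). Of 11 early auxin genes 3 rose and 1 fell, where 19.5% of all tested transcripts were higher and 19.6% lower. IAA6 rose by 0.95 and IAA19 by 0.82, and IAA1 changed by −0.41. Of 7 tested PIF and shade genes 3 rose and 1 fell, PIF4 by 0.21, PAR1, an inhibitor of shade growth, by 1.09 (lost without water replicate 1, limma adjusted p 0.0720) and ATHB2, a homeodomain factor of shade growth, by 0.22, while HFR1 changed by −0.34. The call of ATHB2 was lost without DPI replicate 2 or 3 or water replicate 3 (limma adjusted p 0.0658 to 0.156).

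Of 19 tested detoxification genes 4 rose, 4 fell and 11 did not pass the test, near the shares over all tested transcripts (19.5% higher and 19.6% lower), with CYP81D1 at −1.53 and the glutathione transferase GSTU5 at −0.43. Of 7 tested mitochondrial stress genes 2 fell and 1 rose, too few to set apart from the same shares. AOX1A, the alternative oxidase that marks mitochondrial stress, was at 1052, 1069 and 1077 with water and at 985, 1060.4 and 982 with DPI and did not pass the test (limma adjusted p 0.143). NDA1, an internal NADH dehydrogenase that carries a flavin, fell from 5562 ± 213 to 3771 ± 192 normalized counts (SD, n = 3), and the outer membrane protein OM66 rose by 0.40. Of 6 tested lipid transfer proteins LTP3 rose and LTP5 fell. LTP3 was low at 14.3, 6.46 and 4.05 with water and 37.8, 41.5 and 61.6 with DPI, and its reads may be shared with LTP4, for which no library of the 6 rose above the floor.

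The effect of DPI without light was measured in separate libraries of the unstressed systemic leaf, which share no sample with the comparison above. There 3797 transcripts were higher (20.7%) and 3446 lower (18.8%) under DPI, 39.5% of those tested in all. Of the 3571 transcripts raised in the high light systemic leaf 2586 were raised in the unstressed leaf as well, which is 72.4% of the former and 68.1% of the latter list. Of the 3583 lowered 2483 were lowered in both, 69.3% and 72.1% of the lists. Opposite calls were few, 28 transcripts raised here and lowered there and 72 the reverse. A further 957 raised and 1028 lowered transcripts were called only under high light, but the drop by light interaction passed the threshold in the matching direction for only 103 and 129 of them.

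The drop by light interaction asks directly whether the effect of DPI differs between the lit and the unstressed plant. Control leaves were sampled at 0 min of light and lit plants at 8 min, so the time since the drop also differed. Lit and control leaves also came from separate pools of plants. Light, time since the drop and any other difference between the pools therefore cannot be told apart in this contrast. The interaction passed the threshold for 1172 transcripts (6.40%), with the effect of DPI shifted upward in the lit plant in 425 (2.32%) and downward in 747 (4.08%). At least 2-fold interactions numbered 26 (0.142%) and 161 (0.879%). Of those named FSD1 had the most positive. It was at 711 ± 94.6 with water and 293 ± 9.90 with DPI in the control leaf, and at 51.0 ± 17.2 and 314 ± 17.6 after high light (SD, n = 3), so that the effect of DPI turned from −1.27 to 2.65. AT3G01345, an uncharacterized protein, was at 172, 192 and 198 with water and at 812, 825 and 765 with DPI under high light, beside control means of 196 and 161. AT1G51090, annotated as a heavy metal transport protein, rose here by 1.74 and differed by 0.19 in the control leaf, where it did not pass the test (limma adjusted p 0.313). The sulfate transporter SULTR3;5 differed by 0.11 here and by −1.34 in the control leaf.

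The 4 named with the most negative interactions were transcripts that DPI raised in the unstressed leaf. LTP3 stood at 5.25 ± 2.45 with water and 722 ± 5.27 with DPI in the control leaf and at 8.27 ± 5.36 and 47.0 ± 12.8 after high light (SD, n = 3). LTP4 was at 78.5 ± 14.4 in the DPI control leaf and at 1.20 ± 1.05 with DPI after high light, and at 0 in the water libraries of both. AT4G17470, an alpha/beta-hydrolase, was at 36.0 ± 12.1 and 312 ± 10.6 in the control leaf and at 294, 232 and 244 with water and 215, 193 and 192 with DPI after high light. In this last pair the DPI values were below all water values, but the difference of −0.35 did not pass the threshold (limma adjusted p 0.0777). VSP2, given above, completes the 4.

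The lit local leaf offers the second side of the comparison, again in libraries of its own, with 3935 transcripts higher (21.5%) and 3846 lower (21.0%) under DPI, 42.5% in all. Of the 3571 raised in the systemic leaf 2654 were raised there too (74.3% and 67.4% of the lists), and of the 3583 lowered 2564 (71.6% and 66.7%). By the study's methods local and systemic leaves were both frozen, and the labels do not say whether same-numbered libraries share plants. The shared calls and the drop by leaf interaction may thus rest on the same plants, and the reported fit has no block for this. The drop by leaf interaction passed the threshold for 1035 transcripts (5.65%), with the effect of DPI shifted upward in the systemic leaf in 425 (2.32%) and downward in 610 (3.33%). At least 2-fold interactions numbered 98 (0.535%) and 29 (0.158%). The most positive were led by the defence transcripts PR1, PR2 and a chitinase, which DPI lowered in the local leaf. PR1, a marker of salicylic acid responses, was at 256 ± 23.8 with water and at 17.9 ± 0.674 with DPI in the lit local leaf (SD, n = 3). In the systemic leaf it stood at 89.1, 92.7 and 109 with water and at 81.6, 75.4 and 89.6 with DPI, with groups that overlapped (limma adjusted p 0.151). PR2, a glucanase, went from 1028 ± 104 to 142 ± 24.4 locally (SD, n = 3) and rose in the systemic leaf from 650.3, 598 and 597 to 862, 714 and 817, a difference of 0.37 (SE 0.0893, limma adjusted p 0.000817). A chitinase (CHI, AT2G43570) was at 272 ± 47.8 and 38.6 ± 9.66 locally and at 102 ± 26.1 and 115 ± 15.3 in the systemic leaf (SD, n = 3).

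The most negative leaf interactions were led by transcripts that rose under DPI in both leaves, and further in the local leaf. DDF1 rose by 3.72 in the systemic and 6.49 in the local leaf, where it reached 743 ± 75.9 normalized counts (SD, n = 3). DDF2 was at 232 ± 9.59 and AT5G52020 at 185 ± 14.7 with DPI in the local leaf (SD, n = 3), both from water levels at or near the floor there. The fourth, PDF1, a protein of the epidermis, was at 87.5 ± 12.2 and 60.4 ± 8.06 in the systemic leaf without passing the test (limma adjusted p 0.254), and at or near the floor in the local leaf.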

How the data were processed

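Pooled leaf samples of 24 libraries in 8 groups of 3 were grouped by their GEO labels. The values are normalized counts, a signal per gene deposited by the authors: per the submitters' processing notes, reads were checked with FastQC 0.11.7, aligned to TAIR10 with STAR 2.4.0.1 and scaled with DESeq2 1.20.0. The counting rule and use of strand are not given in the sources used here. All 24 columns were mapped to samples. 32548 of 32833 gene identifiers were matched to RefSeq names (assembly TAIR10.1), used for names only.

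Transcripts with at least 10 normalized counts in at least 3 libraries (18314) were fitted on log2(normalized count + 1) by limma 3.58.1 (R 4.3.3, moderated with a mean trend, two-sided) in 1 model of all 8 groups. Contrasts were DPI minus water in each leaf and the drop by light and drop by leaf interactions, with Benjamini-Hochberg adjustment over all tested transcripts per contrast and a threshold of 0.05. Dividing each value by that of 1 read gave whole reads for 100% of values (tolerance 0.001), on which edgeR 4.0.16 called 7210 transcripts and DESeq2 1.42.0 served as a further alternative. Counting error is all that the floor of 3 reads covers. Other pseudocounts, filters, scalings, a fit of the compared groups only, a replicate block and leaving out each library were also tried. Figures were drawn with matplotlib 3.10.9.

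The transcripts named are the 10 that the study follows, the 12 largest rises and 12 largest falls with groups that do not overlap and a mean of at least 50, the first member and up to 4 called members of each gene list, and 4 transcripts per direction for each interaction. Other list members are named where a sentence turns on them, chosen after their values were seen. The comparison and the gene lists were chosen with earlier results of these data known. Promoter motifs were not analysed here.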

Additional observations from a re-analysis of the deposited data

Results flagged for a closer look

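For 1172 transcripts the effect of DPI in the systemic leaf differed between lit and unstressed plants by the drop by light interaction (limma, Benjamini-Hochberg adjusted p under 0.05), 425 upward and 747 downward. Among the named transcripts with a downward difference in log2 units, the rises under DPI were smaller after high light for WRKY53 (−0.66), DDF1 (−1.41) and CYP94B3 (−1.80). The difference of DDF1 was lost with a pseudocount of 5 (limma adjusted p 0.188) or without the filter on low values (0.0685). That of CYP94B3 was −1.01 without water replicate 1 of the unstressed leaf (limma adjusted p 0.00137). CYP94B3 rose by 5.35 in the unstressed and 3.55 in the lit plant. The falls were deeper after high light for SRG3 (−1.36), RVE1 (−1.55), AT5G54130 (−1.30), LHY (−0.29) and PAP17 (−1.01). RVE1 differed by −1.47 in the unstressed and −3.02 in the lit plant. The same holds for BBX31 (−1.26), ASG4 (−1.05), G3Pp1 (−0.99), AO (−0.77), BBX32 (−1.33) and BMY3 (−1.07). The lowest interactions were those of LTP4 (−5.31), LTP3 (−4.43), AT4G17470 (−3.49) and VSP2 (−2.92). Upward differences were found for FSD1 (3.92), AT3G01345 (2.38), AT1G51090 (1.55), SULTR3;5 (1.45) and AT4G16563 (1.06), and smaller ones for AT1G50040 (0.72), PHI-1 (0.50) and GATA8 (0.46). That of AT1G50040 was lost without water replicate 3 of the lit systemic leaf (limma adjusted p 0.0591), and that of LTP4 by edgeR, with an adjusted p of 1.

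Between the systemic and the local leaf under high light the effect of DPI differed for 1035 transcripts by the drop by leaf interaction, 425 upward and 610 downward in the systemic leaf. Upward differences were those of PR1 (3.53), PR2 (3.23), the chitinase CHI (AT2G43570, 2.99), AT4G24410 (2.77) and FSD1 (0.76). AT4G24410 was at 0.359 ± 0.622 with water and 2.65 ± 1.50 with DPI in the systemic leaf (SD, n = 3), at or under the floor in the water libraries. The differences of AT4G24410 and PDF1 were lost when single libraries were left out, AT4G24410 without each of 10 of the 12 libraries (limma adjusted p up to 0.132) and PDF1 without local DPI replicate 1 (−1.15, 0.0640) or local water replicate 3 (0.0572). That of PDF1 was also lost by edgeR (adjusted p 0.0538), by DESeq2 (0.0851), in the fit of the compared groups only (0.0775) and without the filter on low values (0.0645). Downward differences were those of DDF2 (AT1G63030, −4.00), AT5G52020 (−3.13), DDF1 (−2.77), PDF1 (−1.92), CYP94B3 (−1.74) and BPS3 (−1.41), and smaller ones of PAP17 (−0.59), G3Pp1 (−0.38) and LHY (−0.23). LHY fell by 2.62 in the systemic and 2.39 on the log2 scale in the local leaf.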

How the results depend on the processing

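The counts of called transcripts kept within 1.5 times their reported values under every alternative, at 6573 to 7447 for DPI against water (leaving out 1 library, 6304 to 6549), 1000 to 1420 for the drop by light interaction (971 to 1126) and 856 to 1315 for the drop by leaf interaction (799 to 983). With a filter on the mean of at least 50 normalized counts, at least 2-fold rises fell to 216 and falls to 192, and 2-fold interactions to 11 and 107 by light and 53 and 19 by leaf, since fewer transcripts were tested. The median of all tested transcripts was 0.0044 after TMM and −0.0035 after quantile scaling. Of 175 named transcripts past the threshold 154 were past it in every alternative, 21 were lost in at least 1, among them RBOHD, AT1G56520, WRKY53, ZAT6, ZAT10, ZAT12, ORA47, PAD3 and JAZ10, and none changed direction. Of 78 named drop by light interactions 61 and of 8 drop by leaf interactions 6 were past the threshold in every alternative, the losses by leaf being AT4G24410 and PDF1. Same-numbered libraries deviated from their group means with correlations of 0.0225 to 0.0301, so the numbers were not read as pairs, although each library correlated best with its own number, a hint from the data and not the design. A replicate block called 7447 transcripts (3725 higher, 3722 lower), 7117 of them shared with the reported calls, and 1420 and 1315 interactions. A block within each drop, chosen after seeing the data, gave 1372 drop by leaf interactions. Depth limits transcripts near the floor of 2.40 to 3.30 normalized counts, and the causes of these changes beyond the number tested were not tested.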

Other observations

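The following groups were chosen after their values were seen and are described by counts and medians only. Over all tested transcripts 19.5% were higher and 19.6% lower under DPI in the high light systemic leaf. Several families of cell wall proteins had more members higher than lower under DPI in the high light systemic leaf. Of 20 xyloglucan endotransglucosylases, which cut and rejoin wall polymers, 11 rose and 3 fell (median 0.54 on the log2 scale, beside 0.30 in the unstressed leaf). TCH4, known as induced by touch, stood at 2661, 2699 and 2731 normalized counts with water and at 11133, 10447 and 10735 with DPI, and XTH18 rose by 2.39. Of 26 arabinogalactan proteins 13 rose and 1 fell (median 0.46), with AGP7 at 2.01 and AGP15 at 1.17. Of 6 exordium-type proteins, linked to brassinosteroid growth responses, 5 rose and none fell (median 1.72, beside 1.22). EXO was at 139, 153 and 158 with water and at 796, 742 and 747 with DPI. Members of these families are similar in sequence, and reads may be shared between them.

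Other groups were lower. Of 17 phosphate status genes 11 fell and none rose (median −0.56, beside −0.42 in the unstressed leaf). SPX1, a phosphate sensor, was at 339, 280.1 and 364 with water and at 134, 116 and 117 with DPI, a difference of −1.41 (SE 0.100, limma adjusted p 5.63e-15). Of 19 B-box proteins 12 fell and 3 rose (median −0.46), and BBX30, small like BBX31, fell by 1.79 on the log2 scale. Of 46 SAUR-like auxin-responsive proteins 19 fell and 1 rose (median −0.29). Of 81 chloroplast-encoded genes 80 did not pass the test and 1 fell (median 0.07). By the study's methods the libraries were made with an mRNA kit, and how far it captures chloroplast transcripts was not tested. In the unstressed leaf 18 of the 81 fell and none rose (median −0.41), where 18.8% of all tested transcripts fell.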
